A study of Mus musculus with 6 samples.

Results

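Endothelin and nitric oxide act on the same smooth muscle in opposite directions, and 9 genes of these pathways were followed in the whole oviduct of pregnant mice. They were chosen by symbol, 9 of 55363 symbols in the deposited tables, and are the ligands Edn1, Edn2 and Edn3, the converting enzyme Ece1, the receptors Ednra and Ednrb, and the nitric oxide synthases Nos1, Nos2 and Nos3. Females aged 6 to 8 weeks were mated with fertile males, the day of the vaginal plug was counted as the first day of gestation, and the oviducts were taken on gestational day 3. The 3 control libraries are labelled Mettl3 f/f, which by convention means alleles with loxP sites around part of the gene, and the other 3 are labelled Mettl3 d/d, by convention the deleted form. METTL3 is the methyltransferase of the enzyme complex that puts N6-methyladenosine on messenger RNA. The Cre driver, the deleted exons, the strain and any pooling of animals are not stated in the sources used. The labels do not tie replicates to animals of their own, so the p-values reflect only the scatter among these libraries, which may be technical.

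Endothelins are short vasoactive peptides cut from longer precursors, first by furin-type convertases and then by endothelin-converting enzymes. EDNRA, on smooth muscle, drives contraction through calcium release, while EDNRB, found on endothelium and other cells, is also coupled to nitric oxide release and to clearance of the peptide. Nitric oxide synthases make nitric oxide from arginine with tetrahydrobiopterin as a cofactor, and nitric oxide relaxes muscle through soluble guanylate cyclase and cyclic GMP. In the oviduct, both systems are known for their part in the tone and contraction of the muscle layer that moves the embryo.

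The 3 ligands are close relatives. The part of each coding sequence that encodes the active peptide is shown because the ligands were measured at very unequal levels. Each stretch is 63 bases long, lies in exon 2 of its gene on the plus strand of GRCm38, and is copied from the GENCODE M21 transcripts. The positions are chr13:42303649-42303711 for Edn1, chr4:120161951-120162013 for Edn2 and chr2:174761749-174761811 for Edn3. Capitals mark the 18 positions at which the 3 genes do not all have the same base.
Edn1: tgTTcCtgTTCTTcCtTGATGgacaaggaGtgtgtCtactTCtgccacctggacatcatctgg
Edn2: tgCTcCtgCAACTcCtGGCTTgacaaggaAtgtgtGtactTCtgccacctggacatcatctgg
Edn3: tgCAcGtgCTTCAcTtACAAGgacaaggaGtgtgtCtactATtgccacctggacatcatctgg
In this part Edn1 and Edn2 had 53 of 63 bases in common, Edn1 and Edn3 50, and Edn2 and Edn3 48. The rest of the coding sequences was not compared. Most capitals lie in the first part, and the last stretch, which encodes the tail of the peptide, is the same in all 3. As background, EDNRA binds the products of Edn1 and Edn2 better than that of Edn3, and EDNRB binds all 3.

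In GRCm38 with the GENCODE M21 annotation, Edn1 lies at chr13:42301476-42307990, Edn2 at chr4:120161206-120167360 and Edn3 at chr2:174760619-174784042. Ece1 lies at chr4:137862237-137965229, Ednra at chr8:77663031-77724464 on the minus strand and Ednrb at chr14:103814625-103844402, also on the minus strand. Nos1 and Nos3 share a chromosome, at chr5:117781032-117958840 and chr5:24364810-24384474, and Nos2 lies at chr11:78920787-78960254. All 9 are protein-coding. Transcripts on the opposite strand overlap Edn1, Ednra, Ece1, Nos1 and Nos3, and reads of both strands cannot be told apart where the library does not keep strand, but each such partner was under 1 FPKM in every library.

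The libraries held about 16700000 to 17800000 fragments as implied by the steps of the lowest values. Levels are FPKM, in which fragments are divided by transcript length and by library depth, so levels of different genes can be compared per length. Markers of oviduct epithelium were present in every library, with the oviductal glycoprotein gene Ovgp1 between 2651 and 5690 FPKM and the transcription factor gene Pax8 between 31.6 and 55.5. Mettl3 was higher, not lower, under the d/d label: it was at 11.8, 12.1 and 13.2 FPKM across f/f replicates 1 to 3, against 19.8, 20.3 and 24.5 across d/d replicates 1 to 3 (log2 change 0.75, SE 0.12, limma adjusted p = 0.0145; 0.0688 without f/f replicate 2). A value per gene cannot show a missing exon, so the genotype labels were not checked by it, and every direction below rests on them. Mitochondrially encoded features held 3.61% to 5.70% of FPKM across f/f, against 6.50% to 9.70% in d/d.

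No difference between genotypes passed the test for any of the 6 of these 9 genes that could enter it. Of the 3 genes too low for it, 2, Nos1 and Nos2, were higher in every d/d library. The same order held for 8.87% of all features with a mean between 0.1 and 1 FPKM. That share is no reference for Nos1, which reached this class only through its d/d values. The test was limma on log2(FPKM + 1) with Benjamini-Hochberg adjusted p under 0.05 over all 15438 features with a mean of at least 1 FPKM, and 6 of the 9 genes reached that level. Of these 6, 0 passed, 0 had an unadjusted p under 0.05, and in 0 were the f/f and d/d values separate, while 11.0% of all features tested passed and 35.6% had separate values (18.1% higher and 17.4% lower in d/d). Their log2 changes ran from -0.32 to 0.40, with a median of 0.07 against -0.01 over all features. The other 3, Edn2, Nos1 and Nos2, were below the minimum level, and Nos1 and Nos2 had separate values in the 2 groups.

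**Figure D1:**
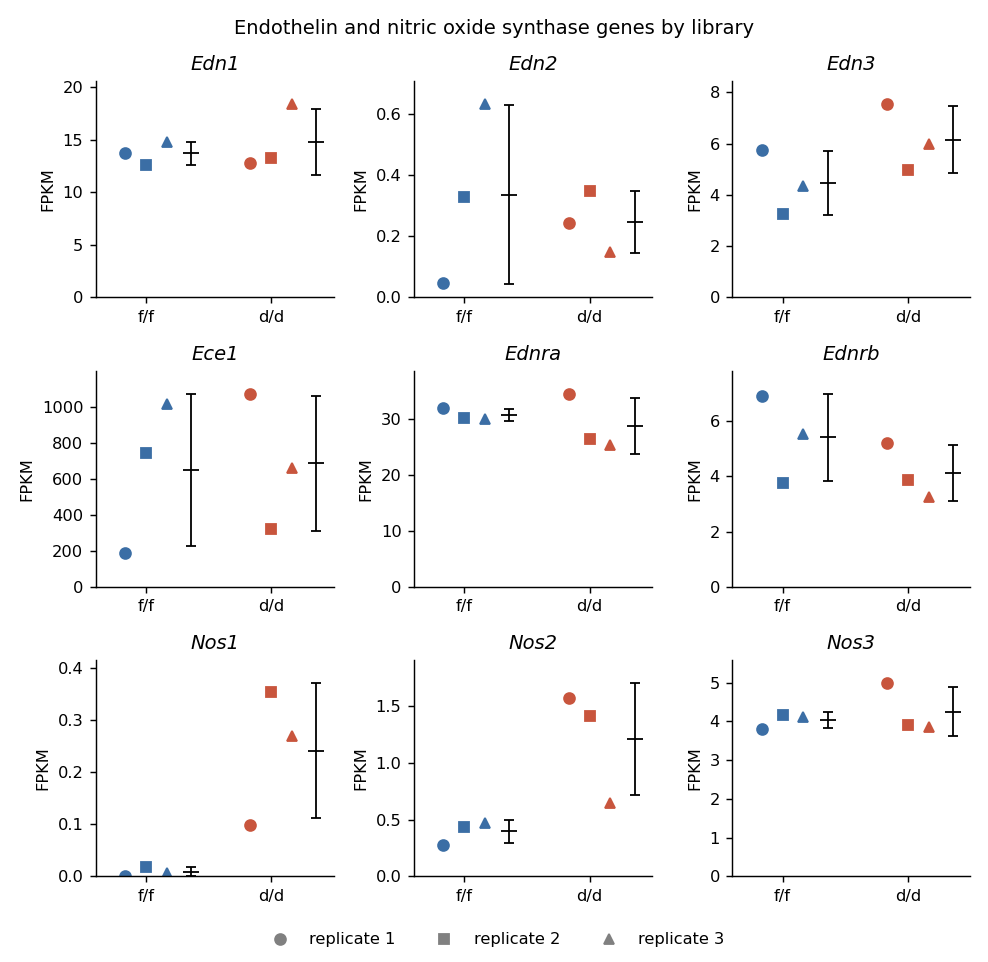
FPKM of the 9 genes in each library, f/f in blue and d/d in red, with replicates 1, 2 and 3 as circle, square and triangle, and the mean ± SD (n = 3) beside each group in black. Only Nos1 and Nos2, both under 2 FPKM, have every d/d library above every f/f library.

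Edn1, the main endothelin of endothelium and epithelia, was the leading ligand in every library, and its groups overlapped. It stood at 13.8, 12.6 and 14.8 FPKM across f/f replicates 1 to 3, against 12.8, 13.2 and 18.4 across d/d replicates 1 to 3. Only d/d replicate 3 lay above the f/f range. The log2 change was 0.09 (SE 0.16, adjusted p = 0.759 by limma), and its 95% interval from -0.29 to 0.46 corresponds to 0.816-fold to 1.38-fold on the scale with the pseudocount. Without d/d replicate 3 the log2 change was -0.07.

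Edn3, best known as the ligand of neural crest and pigment cells, was the second ligand. It was at 5.77, 3.27 and 4.35 FPKM across f/f replicates 1 to 3, against 7.54, 4.95 and 5.96 across d/d replicates 1 to 3. The d/d values were higher on average, but f/f replicate 1 lay inside the d/d range. The means were 4.46 ± 1.25 and 6.15 ± 1.30 FPKM (SD, n = 3 per genotype), with a log2 change of 0.40 (SE 0.22, 95% interval -0.13 to 0.93, limma adjusted p = 0.280), the largest of the 6 genes tested. Leaving out each library in turn gave log2 changes from 0.23 to 0.57, and the interval leaves room for no change or for a rise of up to 1.90-fold on that scale. Of 4 melanocyte markers, Dct and Tyr were at most 0.0849 FPKM and Pmel was between 0.609 and 1.78 in both groups together. Mlana was at 0, 0.176 and 0 FPKM across f/f, against 0.375, 0.466 and 0.500 in d/d, and the part of such cells in the Edn3 values was not tested.

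Edn2, which granulosa cells of the ovary make around ovulation, was at trace level. Its values were 0.0470, 0.328 and 0.634 FPKM across f/f replicates 1 to 3, against 0.242, 0.350 and 0.148 across d/d replicates 1 to 3. Edn2 has a single annotated transcript, and these values amounted to 1, 7 and 13 fragments in f/f, against 5, 7 and 3 in d/d. The Poisson 95% intervals, which cover counting error only, ran from 0.0253 to 5.57 for the lowest count and from 6.92 to 22.2 for the highest. A difference between genotypes was not detected from these few fragments: the fit that kept features with a mean of at least 0.1 FPKM gave a log2 change of -0.08 (limma adjusted p = 0.823; 0.811 to 0.951 over 3 fits that kept it). The highest Edn2 value was in f/f replicate 3, the library in which the steroidogenic genes Cyp11a1 (13.5 FPKM against at most 0.725 elsewhere) and Hsd3b1 (11.2 against at most 0.321) stood out. The 7 ovarian markers summed to 8.49, 6.44 and 37.7 FPKM across f/f replicates 1 to 3, against between 6.34 and 7.74 in d/d, with Fshr listed at 0 in every library. Star and Lhcgr were also highest in f/f replicate 3, but Inha was not. Inha was at 4.79, 3.02 and 3.62 FPKM across f/f replicates 1 to 3, against 4.41, 5.29 and 5.03 in d/d. Amh was at 0.160, 0.160 and 0.166 FPKM across f/f and at most 0.126 in d/d. The part of ovarian cells in the Edn2 value was not tested.

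As shares of the summed ligand level, Edn1 held 74.3% ± 3.80 for f/f and 69.5% ± 6.63 for d/d (SD, n = 3 per genotype). Edn3 held 23.9% ± 4.94 and 29.2% ± 6.52, and Edn2 at most 3.20% in any library. The summed ligand level was between 16.2 and 19.8 FPKM across f/f, against between 18.5 and 24.5 in d/d. Shares and sums of ligands overlapped between the groups, and a score over chosen genes was given no test.

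**Figure D2:**
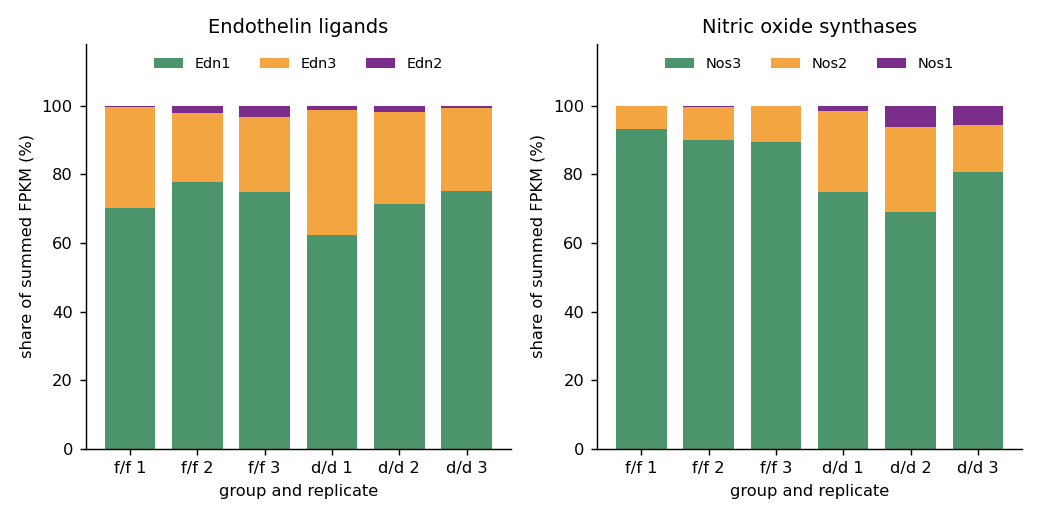
Share of the summed FPKM (%) held by each endothelin gene (left) and each nitric oxide synthase gene (right) in the 6 libraries, as stacked bars. Edn1 holds 62.2% to 77.8% of the ligand level in all libraries, and the Nos3 share lies between 89.6% and 93.1% in f/f and between 69.0% and 80.7% in d/d.

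Ednra, the contractile receptor, was the more abundant receptor in every library and its groups overlapped. It was at 31.9, 30.2 and 30.0 FPKM across f/f replicates 1 to 3, against 34.4, 26.3 and 25.4 across d/d replicates 1 to 3. The d/d values lay on both sides of the narrow f/f range. The log2 change was -0.10 (SE 0.13, adjusted p = 0.644 by limma), with a 95% interval from -0.42 to 0.22, or 0.745-fold to 1.16-fold. Without d/d replicate 1 it was -0.24 (limma adjusted p = 0.236).

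Ednrb, the receptor that takes all 3 ligands, was at 6.92, 3.77 and 5.52 FPKM across f/f replicates 1 to 3. In d/d replicates 1 to 3 it was at 5.21, 3.85 and 3.23. The groups overlapped, and the highest and the lowest value belonged to different groups. The log2 change was -0.32 (SE 0.24, 95% interval -0.89 to 0.26, limma adjusted p = 0.422), the largest decrease among the 6 genes tested but with an interval that includes 0. The ratio of Ednra to Ednrb was 4.61, 8.00 and 5.43 in f/f, against 6.60, 6.83 and 7.85 in d/d. All 6 ratios were above 4, and the groups overlapped, with a mean of 6.01 ± 1.77 for f/f and 7.10 ± 0.667 for d/d (SD, n = 3 per genotype).

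Ece1, the enzyme that makes the active peptide from big endothelin, had the highest level and the widest spread of the 9 genes. It was at 188, 743 and 1012 FPKM across f/f replicates 1 to 3, against 1071, 322.5 and 659.5 across d/d replicates 1 to 3. The lowest and the highest value came from replicate 1 of either group, and the groups overlapped over nearly the whole range. The log2 change was 0.23 (SE 0.70, 95% interval -1.43 to 1.89, limma adjusted p = 0.859), which covers anything from 0.371-fold to 3.70-fold. Single libraries turned its sign: dropping f/f replicate 1 gave -0.50 and dropping d/d replicate 1 gave -0.18, while dropping f/f replicate 3 gave 0.71. The within-group SD on the log2 scale was 1.10, higher than that of 97.8% of the features tested.

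Its level, too, stood apart, above that of 99.3% of features tested. GENCODE M21 lists 4 transcripts of Ece1, of 4816, 728, 321 and 172 nt, and the shortest is below the 260 nt taken off transcript lengths to put low values on whole fragments. FPKM of very short transcripts can be far from their number of fragments, and the tables give no value per transcript, so whether the short transcript set the level of Ece1 was not tested. The 224 protein-coding features tested that have a transcript under 200 nt had a median within-group SD of 0.192, against 0.197 in the other 13263. These are medians of spread over many features, so they cannot show what the short transcript did to the level of Ece1.

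The 3 genes whose values moved most like those of Ece1 over the 6 libraries were Tpm2, Opn1sw and Actg2. Likeness was the root mean square difference of log2(FPKM + 1) values after each gene was centred on its own mean, 0.29 for Tpm2, 0.41 for Opn1sw and 0.42 for Actg2. Tpm2, a tropomyosin gene of muscle, was at 239, 813 and 897 FPKM across f/f replicates 1 to 3, against 780, 358 and 516 in d/d. Actg2, the actin of visceral smooth muscle, was at 183, 571 and 536 in f/f and at 434, 236 and 343 in d/d. Opn1sw, an opsin gene, did not exceed 4.99 FPKM. The 8 smooth muscle markers summed to 2232, 5191 and 5323 FPKM across f/f replicates 1 to 3, against 4456, 2737 and 3594 in d/d. Ece1 and this sum were both lowest in f/f replicate 1 and next lowest in d/d replicate 2. Their highest values came from different libraries, d/d replicate 1 for Ece1 and f/f replicate 3 for the sum. Of the 8 markers, Des, Synpo2 and Tagln were lowest in d/d replicate 2 and the others in f/f replicate 1. Actg2 is itself among the 8 markers, so its likeness to Ece1 and that of the sum are not separate observations. In whole tissue, fewer cells of a type and less RNA per cell cannot be told apart, and the part of muscle content in the Ece1 values was not tested.

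**Figure D3:**
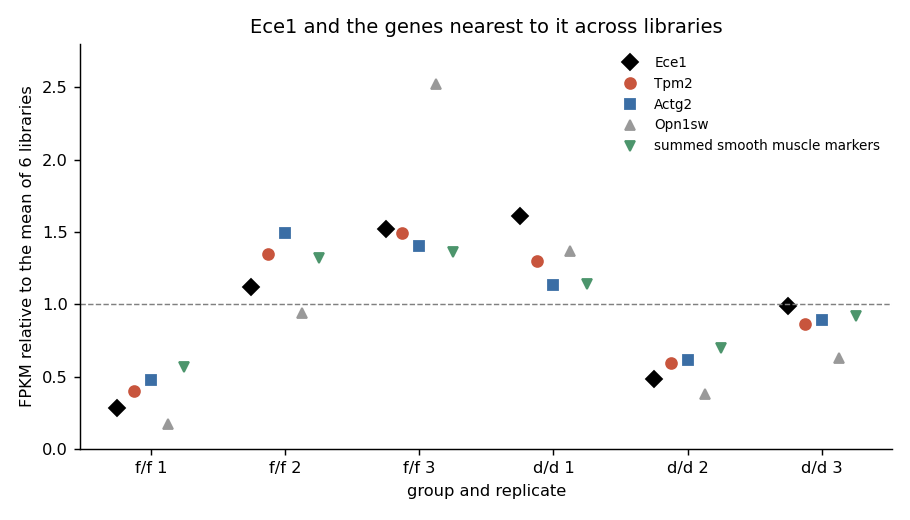
FPKM of Ece1, of the 3 genes nearest to it and of the summed smooth muscle markers, each divided by its mean over the 6 libraries (dashed line at 1). Ece1 runs from 0.282 in f/f replicate 1 to 1.61 in d/d replicate 1, and the smooth muscle sum from 0.569 in f/f replicate 1 to 1.36 in f/f replicate 3.

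Nos3, the endothelial synthase, was the most abundant nitric oxide synthase gene in every library, and its groups overlapped. It was at 3.80, 4.17 and 4.12 FPKM across f/f replicates 1 to 3, against 4.98, 3.92 and 3.85 across d/d replicates 1 to 3. Only d/d replicate 1 lay above the f/f values. The log2 change was 0.05 (SE 0.15, 95% interval -0.31 to 0.42, limma adjusted p = 0.845), or 0.809-fold to 1.33-fold, and without d/d replicate 1 it was -0.04. The 10 endothelial markers, which include the junction genes Pecam1 and Cdh5, summed to 288, 317 and 370 FPKM across f/f, against 473, 318 and 357 in d/d, also highest in d/d replicate 1. Of these 10 markers 1 rose, Vwf (2.17-fold, limma adjusted p = 0.0102; 0.0512 without f/f replicate 2), and 0 fell, beside 6.04% and 4.97% of all features tested. Pecam1 was at 47.9 ± 2.49 FPKM across f/f, against 47.5 ± 6.25 in d/d (SD, n = 3 per genotype, adjusted p = 0.928 by limma).

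Nos2, the inducible synthase of activated macrophages and epithelia, was higher in each library labelled d/d than in any f/f library. It was at 0.281, 0.439 and 0.474 FPKM across f/f replicates 1 to 3, against 1.57, 1.41 and 0.647 across d/d replicates 1 to 3. The d/d values were spread widely, and that of replicate 3 was close to the f/f range. The means, 0.398 ± 0.103 and 1.21 ± 0.492 FPKM (SD, n = 3 per genotype), differed 3.04-fold. Nos2 was too low for the test above. With the minimum at 0.1 FPKM the log2 change was 0.64 (SE 0.21, 95% interval 0.14 to 1.13, unadjusted p = 0.0186, limma adjusted p = 0.116), and in that fit 7.20% of 20824 features passed. With a pseudocount of 0.1 as well, a setting chosen after seeing the data under which 7.68% of features passed, the log2 change was 1.33 and the limma adjusted p 0.121, and with no minimum it was 0.139. The two-sided exact permutation p for the means was 0.1, the smallest that 3 against 3 allows.

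Macrophage markers were higher in the same libraries. All 8 markers measured passed the test and rose, beside 6.04% of all features tested. Of the markers, 8, 3 and 4 did so when f/f replicates 1, 2 and 3 were left out in turn, and 7, 3 and 6 when d/d replicates 1, 2 and 3 were. Over all features, 933 passed and rose with every library in. That number was 942, 184 and 324 without f/f replicates 1, 2 and 3, and 469, 362 and 390 without d/d replicates 1, 2 and 3. The summed level of the 8 markers was between 339 and 430 FPKM across f/f, against between 951 and 1279 in d/d. Across f/f replicates 1 to 3 the sum fell, at 430, 382 and 339 FPKM, while Nos2 rose from 0.281 to 0.474. Among the d/d libraries the sum was lowest in replicate 3, as for Nos2, but not every marker had this order. Adgre1 and Csf1r were lowest in d/d replicate 1, at 28.3 and 45.5 FPKM, against 36.5 and 47.3 in d/d replicate 3. The other markers were lowest in d/d replicate 3. Adgre1, the gene of the F4/80 antigen, rose 2.37-fold, from 14.1 ± 3.97 to 33.4 ± 4.40 FPKM (SD, n = 3 per genotype, adjusted p = 0.0157 by limma), and failed when replicate 2 or 3 of either group was left out (0.0578 to 0.0689). The neutrophil markers summed to 95.6, 14.2 and 7.09 FPKM across f/f replicates 1 to 3, against 79.9, 88.4 and 28.4 in d/d. The part of these cells in the Nos2 values was not tested.

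Nos1, the neuronal synthase, was near 0 in f/f and low in d/d. It was listed at 0 in f/f replicate 1, at 0.0170 FPKM in replicate 2 and at 0.00590 in replicate 3, against 0.0978, 0.353 and 0.269 across d/d replicates 1 to 3. Every d/d library lay above every f/f library. If all fragments fell on the longest transcript of 10123 nt, the values would stand for 0, 3 and 1 fragments in f/f and for about 17, 58 and 45 in d/d. The Poisson 95% intervals, 0.619 to 8.77 for the highest f/f count and 9.90 to 27.2 for the lowest d/d count, did not overlap, but they cover counting error and not the spread between samples. Nos1 reached a mean of 0.1 FPKM only through d/d (mean 0.240, against 0.00765 in f/f), so its place in the fits with that minimum depends on the group in which it is high, and their values are a description. With the minimum at 0.1 FPKM the log2 change was 0.29 (limma adjusted p = 0.204), and with a pseudocount of 0.1 as well it was 1.58 (SE 0.56, limma adjusted p = 0.134). With no minimum, where this selection does not enter, the limma adjusted p was 0.111. The exact permutation p was again 0.1, the smallest possible.

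Among features with a mean between 0.1 and 1 FPKM, the class of Nos1, Nos2 and Edn2, 12.1% had every d/d value below every f/f value, beside the 8.87% with the opposite order. Nos1 is in that class only through its d/d values, so these shares are no reference for it. The summed level of 6 neuron markers was between 7.85 and 14.4 FPKM across f/f, against between 6.98 and 8.11 in d/d. Elavl4, Th and Snap25 were at most 0.0909 FPKM in any library, and Uchl1 was at 4.25 to 13.2 in f/f and 2.51 to 5.67 in d/d. Tubb3, a tubulin gene of neurons, was higher in every d/d library, at 0.105, 0.315 and 0.230 FPKM across f/f, against 0.830, 1.61 and 1.10 in d/d, below the mean needed for the test. The part of neurons in the Nos1 values was not tested. The 2 non-coding genes that overlap Nos1, Gm37028 and Gm26995, were listed at 0 in all libraries.

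As a share of the summed synthase level, Nos3 was below its f/f range in every d/d library, with 90.9% ± 1.91 for f/f and 74.9% ± 5.89 for d/d (SD, n = 3 per genotype). Nos2 held 8.89% ± 1.79 and 20.7% ± 6.16, and Nos1 at most 0.368% in f/f and between 1.47% and 6.21% in d/d. The summed synthase level was 4.09, 4.63 and 4.60 FPKM across f/f, against 6.64, 5.68 and 4.76 in d/d. None of these 4 quantities overlapped between the groups, and they rest on the same Nos1 and Nos2 values as above. They are given as a description, without a test.

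**Figure D4:**
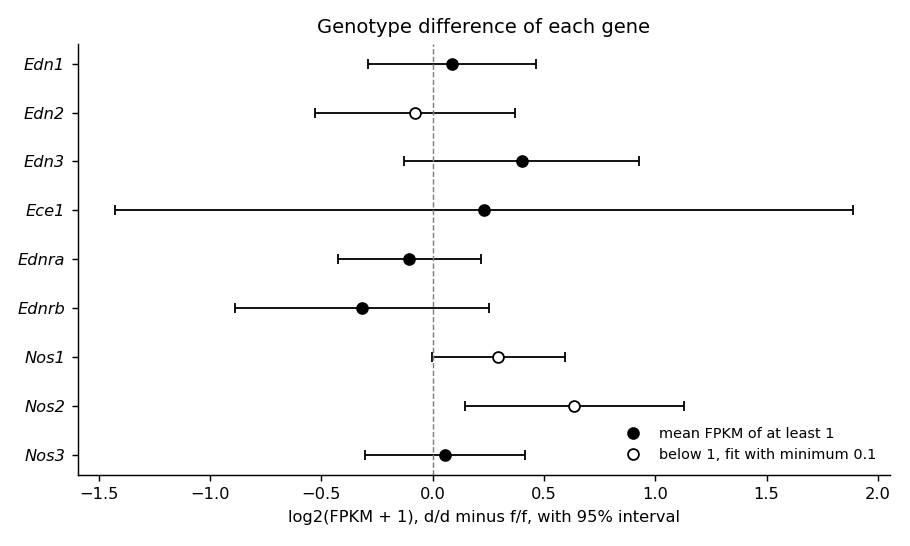
Change in mean log2(FPKM + 1) from f/f to d/d, with its 95% interval from limma, for the 9 genes. Filled points are the 6 genes with a mean of at least 1 FPKM and open points the 3 genes tested with a minimum of 0.1 FPKM; only the interval of Nos2 (0.14 to 1.13) lies wholly above 0, with an adjusted p of 0.116.

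Ordered by mean level over the 6 libraries, the genes ran Ece1, Ednra, Edn1, Edn3, Ednrb, Nos3, Nos2, Edn2 and Nos1. The ranges of Ece1, Ednra, Edn1 and Edn3 did not overlap from one to the next, and Nos3 stood above Nos2 in all 6 libraries. Edn3, Ednrb and Nos3, at means of 5.31, 4.75 and 4.14 FPKM, had overlapping ranges. Edn3 was above Ednrb in 0 of 3 f/f libraries and in 3 of 3 d/d libraries, a difference in order that was not tested. Ednrb was above Nos3 in 3 of 6 libraries, and Edn3 above Nos3 in 5 of 6. Nos2, Edn2 and Nos1 also overlapped, with means of 0.803, 0.292 and 0.124 FPKM.

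The genes around these 9 included several that changed. Of 84 further pathway genes listed, 76 were tested, and 8 rose and 6 fell in the libraries labelled d/d, 18.4% in all against 11.0% of all features tested (6.04% higher and 4.97% lower). Their median log2 change was 0.02. Each call is from limma with adjustment over all features. Of these 14 calls, 11, 2 and 4 were kept when f/f replicates 1, 2 and 3 were left out in turn, and 7, 3 and 4 when d/d replicates 1, 2 and 3 were. Over all features, 1701 passed with every library in. That number was 1795, 308 and 525 without f/f replicates 1, 2 and 3, and 885, 635 and 652 without d/d replicates 1, 2 and 3. The folds of the 14 genes kept their direction whichever library was left out, so a lost call below is not a lost difference.

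**Figure D5:**
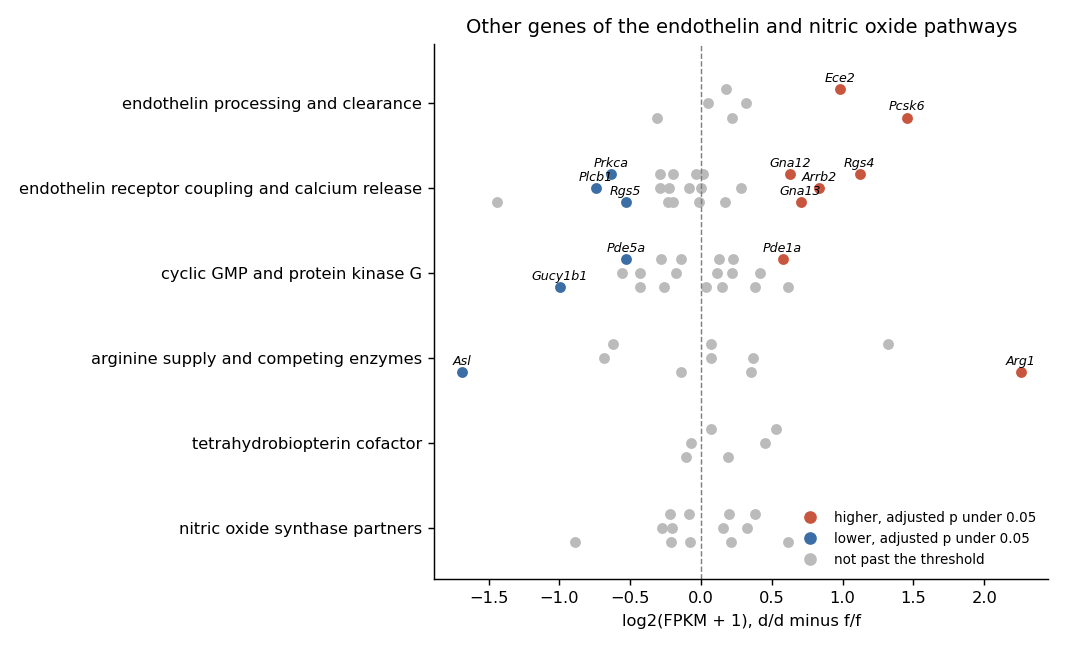
Change in mean log2(FPKM + 1) from f/f to d/d, for the 76 other pathway genes tested, by list, with vertical offsets only to separate points. Coloured and named are the 8 genes that rose and the 6 that fell; the 2 lists at the bottom have none.

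In processing and clearance of endothelin, 2 of 7 genes tested rose and 0 fell, with a median log2 change of 0.22. Pcsk6, a proprotein convertase, was at 3.11, 2.11 and 2.42 FPKM across f/f replicates 1 to 3, against 9.43, 7.45 and 9.13 across d/d replicates 1 to 3. The groups were far apart, with a 3.41-fold difference of means (log2 change 1.45, SE 0.17, limma adjusted p = 0.00825). Ece2, a second converting enzyme, was at 1.28, 1.58 and 1.23 FPKM across f/f, against 3.52, 3.51 and 3.95 in d/d, a 2.69-fold rise (log2 change 0.98, SE 0.17, limma adjusted p = 0.0178). Pcsk6 passed whichever library was left out (highest adjusted p = 0.0417), and Ece2 passed only without f/f replicate 1 (0.0295; 0.0519 to 0.0663 without any other). Furin, the convertase that first cuts the precursor, was at 33.5 ± 1.82 and 39.2 ± 4.93 FPKM (SD, n = 3 per genotype, adjusted p = 0.279 by limma). Mme, neprilysin, which degrades the peptide, was at 47.1 ± 5.37 and 59.2 ± 9.96 FPKM (SD, n = 3 per genotype, adjusted p = 0.225 by limma).

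Downstream of the receptors, 4 of 21 genes of G protein coupling and calcium release rose and 3 fell, with a median log2 change of -0.08. Rgs4, which speeds the switching-off of Gq and Gi proteins, was at 3.93, 4.61 and 5.94 FPKM across f/f, against 13.5, 13.0 and 8.70 in d/d (2.43-fold higher, limma adjusted p = 0.0225). Arrb2, an arrestin that uncouples receptors, rose 1.80-fold from 22.5 ± 4.43 to 40.6 ± 4.73 FPKM (SD, n = 3 per genotype, adjusted p = 0.0254 by limma). Plcb1, a phospholipase C that releases calcium downstream of Gq, was at 13.1, 10.9 and 12.5 FPKM across f/f, against 7.21, 6.39 and 7.02 in d/d (1.78-fold lower, limma adjusted p = 0.0155). None of these 3 genes overlapped between the groups, as was the case for 35.6% of all features tested. They were picked as calls on the same values, so this is no separate evidence. Gna13, a G protein alpha subunit, rose from 19.5 ± 1.36 to 32.5 ± 3.38 FPKM (SD, n = 3 per genotype, 1.66-fold, adjusted p = 0.0147 by limma).

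The other 3 calls of the list are Gna12 at 1.55-fold higher (limma adjusted p = 0.0101), the protein kinase C gene Prkca at 1.65-fold lower (0.0399) and Rgs5, a pericyte and muscle regulator of G proteins, at 1.47-fold lower (0.0458). Gna12 lay within 50.8 to 52.1 FPKM across f/f, against 79.1 to 80.7 in d/d. Gna12 and Gna13 lost their calls only without f/f replicate 2 (0.0523 and 0.0696), whereas Rgs5 lost its call whichever library was left out (0.0561 to 0.117). Arrb2 and Prkca passed only when f/f replicate 1 was the library left out (0.0136 and 0.0265), and otherwise stood at 0.0538 to 0.0859 and 0.0762 to 0.141. Rgs4 failed when the first or second d/d library or the second f/f library was left out (0.0671 to 0.0873), and Plcb1 when replicate 2 or 3 of either group was (0.0506 to 0.0647). Rgs2, which quenches Gq, was at 51.3, 112.5 and 126.2 FPKM across f/f, against 44.6, 22.8 and 33.7 in d/d, apart in every library but with a limma adjusted p of 0.0576. Gnaq itself was at 45.9 ± 2.85 and 37.5 ± 5.07 FPKM (SD, n = 3 per genotype, adjusted p = 0.167 by limma).

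In the cyclic GMP pathway, 1 of 19 genes rose and 2 fell, with a median log2 change of 0.04. Gucy1b1, the beta subunit that carries the heme which binds nitric oxide, was at 9.06, 7.49 and 11.2 FPKM across f/f, against 4.60, 3.80 and 3.85 in d/d (2.26-fold lower, limma adjusted p = 0.0176). Its partner subunit Gucy1a1 was at 13.5 ± 1.60 and 9.86 ± 2.46 FPKM (SD, n = 3 per genotype, adjusted p = 0.186 by limma). Pde5a, the phosphodiesterase that degrades cyclic GMP, fell 1.46-fold from 25.3 ± 1.46 to 17.3 ± 2.34 FPKM (SD, n = 3 per genotype, adjusted p = 0.0418 by limma). Pde1a, a calcium-activated phosphodiesterase, rose 1.55-fold from 8.19 ± 1.06 to 12.7 ± 0.731 FPKM (SD, n = 3 per genotype, adjusted p = 0.0361 by limma), and lost its call whichever library was left out (0.0581 to 0.131). Gucy1b1 failed when f/f replicate 3 or replicate 2 or 3 of d/d was left out (0.0607 to 0.0613), and Pde5a passed only without d/d replicate 1 (0.0389; 0.0513 to 0.133 without any other).

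Arginine is the substrate of the synthases, and in its supply and competing use 1 of 10 genes rose and 1 fell, with a median log2 change of 0.07. Arg1, an arginase that uses the same arginine, was at 4.96, 1.44 and 1.44 FPKM across f/f, against 11.7, 19.9 and 13.6 in d/d (5.77-fold higher, log2 change 2.26, SE 0.39, limma adjusted p = 0.0176). Asl, which makes arginine from argininosuccinate, was at 28.6, 81.3 and 75.7 FPKM across f/f, against 18.5, 16.0 and 16.0 in d/d (3.68-fold lower, log2 change -1.69, SE 0.38, limma adjusted p = 0.0379). Both genes were apart in every library, which is no evidence beyond their calls on the same values. For each, f/f replicate 1 was the f/f library nearest to d/d, and without it the limma adjusted p was 0.00403 for Arg1 and 0.00136 for Asl. The fold of Arg1 rests on that library and was 10.5 without it. Arg1 also passed with the first d/d library left out (0.0397) but failed with any of the other 4 left out (0.0591 to 0.0693), and Asl failed with any of the other 5 left out (0.083 to 0.117). Arg1 is also a gene of alternatively activated macrophages, whose markers were higher as given with Nos2, and the part of those cells in the Arg1 values was not tested. Arg2, the mitochondrial arginase, was at 9.03, 18.4 and 14.1 FPKM across f/f, against 45.3, 21.7 and 42.5 in d/d, with a limma adjusted p of 0.0543.

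None of the 6 tetrahydrobiopterin genes tested passed by limma, 1 of them at an unadjusted p under 0.05, and the 2 most abundant, Pts and Qdpr, had adjusted p-values of 0.791 and 0.488. Of the 13 partners of the synthases, 0 passed and 3 had an unadjusted p under 0.05. The share of all features at that unadjusted cut was not counted, so these numbers have no reference. The most abundant partner, the chaperone gene Hsp90ab1, was at 604 ± 53.7 and 671 ± 21.5 FPKM (SD, n = 3 per genotype, adjusted p = 0.451 by limma). Dynll1, first known as an inhibitor of neuronal synthase, was at 240.7 ± 17.7 and 372 ± 72.3 FPKM (SD, n = 3 per genotype, adjusted p = 0.0545 by limma).

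Markers of other cell types are given as counts of tested genes that rose and that fell, beside 6.04% and 4.97% of all features tested. With so few markers per list, counts of 0 to 2 cannot be told from those shares. Smooth muscle markers gave 0 and 2 of 8, Des and Synpo2, and pericytes 0 and 1 of 5, Abcc9. Fibroblast markers gave 1 and 1 of 5, with Lum higher and Pdgfra lower, and secretory epithelium 2 and 1 of 6, with Epcam and Cdh1 higher and Krt18 lower. Lymphatic endothelium gave 0 and 1 of 3, Lyve1, and neutrophils 1 and 0 of 5, Csf3r. Multiciliated epithelium gave 0 and 0 of 7, its sum lying between 102 and 317 FPKM across f/f, against between 41.3 and 176 in d/d. Mast cells, neurons and glia gave 0 and 0 of 2 each, melanocytes 0 and 0 of 1, and ovarian cells and red blood cells 0 and 0 of 4 each. Each marker call outside the macrophages was lost without f/f replicate 2 (limma adjusted p 0.0512 to 0.137). In that fit 308 of all features passed, against 1701 with every library in. The part of these cell types in the pathway results was not tested.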

How the data were processed

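Total RNA of the whole oviduct was extracted with TRIzol and libraries were prepared from it with Illumina's TruSeq kit for RNA, per the labels' protocols. HISAT2 2.2.1, Cufflinks 2.2.1 and the builds mm9 and mm10 are named per the submitters' processing notes, without their roles. The deposited values were read as FPKM, an inference from Cufflinks and from decimals whose sums differ between libraries. Each table held 55483 features, of which 99.4% matched GENCODE M21, and 114 repeated symbols were summed. Fragments were estimated from the steps of low values, of which 92.6% to 93.4% per library lay within 1% of a whole step with 260 nt taken off transcript lengths. The test was limma 3.58.1 (R 4.3.3, eBayes with a variance trend) on log2(FPKM + 1) for features averaging 1 FPKM or more, f/f against d/d, with Benjamini-Hochberg adjustment at 0.05. Folds are ratios of mean FPKM, and log2 changes are on the log2(FPKM + 1) scale, which understates changes of low genes. On simulated data with 200 changed genes among 15438 features, changes of 0.5, 1 and 2 on the log2 scale were recovered in 3.43%, 45.8% and 80.5%, with 4.86% false calls. In the real data 1701 features passed, and the adjustment depends on how many features change. Recovery in the real test can therefore differ from these shares. The genes and lists were chosen with earlier results of these data known, and 1 pathway list and 1 marker are not reported here. The text names the 9 genes, Mettl3, up to 4 genes past the threshold per list (the 2 most abundant where none passed) and the 3 nearest profiles of the most abundant of the 9. Further genes, such as Furin, Mme, Gna12, Prkca, Rgs5, Rgs2, Gnaq, Gucy1a1, Arg2 and single cell type markers, were named after their values were seen. Alternatives changed the pseudocount, filter, scaling, variance trend, replicate block and libraries included.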

Additional observations from a re-analysis of the deposited data

How the results depend on the processing

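The count of calls among the 9 genes was 0 in all 16 alternatives, but Edn2, Nos1 and Nos2 could be called in only 3 of these, those with a lower minimum or none, and 1 of the 3 (a pseudocount of 0.1 with a minimum mean of 0.1 FPKM) was chosen after seeing the data. The sign changed in 1 alternative for Edn1, 3 for Ece1 and 2 for Nos3. The number of features past the threshold was 1701, 1107 with no filter and 308 to 1795 when single libraries were left out (lowest without f/f replicate 2, highest without f/f replicate 1). With the replicate number as a block it was 276. The labels do not say what the replicate numbers mark, so the numbers were not taken as a pairing. Deviations from the group means had correlations of -0.22, -0.058 and 0.003 between same-numbered libraries, against -0.276 to 0.282 between the others. With 3 libraries per group this cannot show or exclude a pairing. With the replicate block Mettl3 kept its log2 change of 0.75 at a limma adjusted p of 0.0559. When single libraries were left out, the change of Mettl3 ran from 0.66 to 0.80, and without f/f replicate 2 it was 0.74 (adjusted p = 0.0688); the cause was not tested. Under the block, 2 of the 14 pathway calls remained, and 8 with no filter. The difference in the Ednra to Ednrb ratio, 1.08, ran from 0.38 to 2.08 without single libraries. Scalings moved the median of all features by less than 0.1. Edn2 rests on 1 to 13 fragments a library, so its counting error is wide.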
